A study of Mus musculus with 8 samples.

Results

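The immunoglobulin heavy chain variable segments (Ighv genes) were followed in RNA from the intestine of 8 mice. They were taken as the rows whose symbol, looked up from the Ensembl identifier, starts with Ighv and whose value was above 0 in at least 1 library. Of 49585 gene rows, 185 were Ighv genes and 115 of these met the rule. Each library came from a separate C57BL/6 mouse, 4 of them Klebsiella recipients and 4 Lactobacillus recipients, named after genera of bacteria. No source used here states the material the mice were given, its duration, their age, or the part of the intestine taken. Each mouse is named by its group with its number from the labels. Levels are FPKM, in which reads are divided by the gene's length and the size of the library.

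An antibody heavy chain is encoded by a variable, a diversity and a joining segment that are cut and joined in each developing B cell, so that each B cell clone carries 1 productive choice of variable segment. The gut wall holds many plasma cells, which secrete mostly IgA and make very large amounts of antibody RNA. The share of a segment in tissue RNA therefore depends on how many cells use it and on how much RNA each of them makes, and these cannot be told apart in bulk tissue. A segment is not a clone: the junction that identifies a clone is not resolved in values per gene.

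The sequences of the segments that led in some mouse show how alike the counted genes are. Ighv6-3 had the largest mean share, and Ighv3-8 led in Klebsiella mouse 1. Each is printed below over the coding strand of its last exon (chr12:114391712-114391996 and chr12:114322377-114322661, minus strand, GRCm38, from GENCODE M21 transcripts), with the codons up to the conserved cysteine before the junction in capitals.
Ighv6-3: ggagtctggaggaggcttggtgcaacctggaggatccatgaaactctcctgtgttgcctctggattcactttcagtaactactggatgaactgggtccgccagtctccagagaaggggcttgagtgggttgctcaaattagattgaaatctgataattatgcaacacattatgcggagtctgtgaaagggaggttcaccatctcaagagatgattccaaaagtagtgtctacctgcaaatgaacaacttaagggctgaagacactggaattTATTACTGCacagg
Ighv3-8: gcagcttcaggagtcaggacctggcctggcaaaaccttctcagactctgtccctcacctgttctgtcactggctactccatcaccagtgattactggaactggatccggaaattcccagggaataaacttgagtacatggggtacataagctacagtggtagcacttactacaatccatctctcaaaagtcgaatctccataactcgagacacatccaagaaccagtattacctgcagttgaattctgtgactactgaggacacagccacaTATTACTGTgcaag
The closest annotated relative of Ighv6-3 was Ighv6-6, at 90.8% identity of the annotated transcripts, and that of Ighv3-8 was Ighv3-6, at 88.0%. Ighv1-22, which led in Lactobacillus mouse 3, and Ighv1-26, which led in Klebsiella mouse 2, are much closer to each other. They differ at 11 of the 285 bases shown (chr12:114746274-114746558 and chr12:114788373-114788657, minus strand), here in capitals.
Ighv1-22: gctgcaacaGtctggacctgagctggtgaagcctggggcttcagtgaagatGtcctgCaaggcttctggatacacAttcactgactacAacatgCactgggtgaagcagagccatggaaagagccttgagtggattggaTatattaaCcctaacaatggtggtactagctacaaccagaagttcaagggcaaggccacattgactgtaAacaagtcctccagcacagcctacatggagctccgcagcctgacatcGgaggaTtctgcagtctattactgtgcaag
Ighv1-26: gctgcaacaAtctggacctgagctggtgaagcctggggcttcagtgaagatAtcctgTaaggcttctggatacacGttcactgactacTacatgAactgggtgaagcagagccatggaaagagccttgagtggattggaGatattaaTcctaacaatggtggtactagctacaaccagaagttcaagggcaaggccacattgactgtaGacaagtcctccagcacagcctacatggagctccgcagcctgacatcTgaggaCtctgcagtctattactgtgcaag
Ighv1-50 came after Ighv6-3 in Klebsiella mouse 4, and Ighv1-69 came after Ighv6-3 in Lactobacillus mouse 4. They differ at 8 of 285 bases (chr12:115119749-115120033 and chr12:115623162-115623446, minus strand, differences in capitals).
Ighv1-50: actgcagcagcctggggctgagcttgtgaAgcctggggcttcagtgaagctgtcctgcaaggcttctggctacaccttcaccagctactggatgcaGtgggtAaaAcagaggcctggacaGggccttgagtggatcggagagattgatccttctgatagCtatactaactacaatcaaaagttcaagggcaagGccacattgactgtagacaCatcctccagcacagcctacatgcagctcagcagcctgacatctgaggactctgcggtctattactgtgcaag
Ighv1-69: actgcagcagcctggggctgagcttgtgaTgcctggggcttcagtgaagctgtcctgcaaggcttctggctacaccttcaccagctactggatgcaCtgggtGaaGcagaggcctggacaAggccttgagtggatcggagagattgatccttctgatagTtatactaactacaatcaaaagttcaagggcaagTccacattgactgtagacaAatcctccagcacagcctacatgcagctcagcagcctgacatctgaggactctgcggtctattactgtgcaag
Ighv14-1 and Ighv14-2 were both prominent in Klebsiella mouse 4, and Ighv14-2 was also prominent in Lactobacillus mouse 2. They differ at 9 of 285 bases (chr12:113931954-113932238 and chr12:113994470-113994754, minus strand, differences in capitals).
Ighv14-1: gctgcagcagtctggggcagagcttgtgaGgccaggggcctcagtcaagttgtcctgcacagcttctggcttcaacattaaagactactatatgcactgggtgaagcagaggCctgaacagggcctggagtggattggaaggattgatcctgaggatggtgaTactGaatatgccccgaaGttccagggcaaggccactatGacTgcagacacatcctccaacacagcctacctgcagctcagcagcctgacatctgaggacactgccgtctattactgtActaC
Ighv14-2: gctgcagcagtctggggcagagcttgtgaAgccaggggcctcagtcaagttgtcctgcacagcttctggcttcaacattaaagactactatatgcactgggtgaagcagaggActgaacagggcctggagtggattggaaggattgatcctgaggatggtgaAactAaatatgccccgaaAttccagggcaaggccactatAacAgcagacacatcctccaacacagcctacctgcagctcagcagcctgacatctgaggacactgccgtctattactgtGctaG
Of the 102 members not annotated as pseudogenes, 53 had another Ighv gene at 95% identity or more over the annotated transcript and 4 at 99% or more. No source used here gives how reads that fit several segments were treated, so shares of close relatives are uncertain.

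The authors' filter left 40455910 to 55447220 reads in a library. Whole reads could be recovered from the steps in the FPKM values, and the Ighv members had 9062, 9749, 7579 and 40990 reads in Klebsiella mice 1 to 4, against 15374, 20942, 9472 and 8075 in Lactobacillus mice 1 to 4. These were 0.0466% to 0.237% of the reads in genes in Klebsiella libraries and 0.0439% to 0.106% in Lactobacillus libraries. Epcam, an epithelial adhesion molecule, was at 661 to 689 FPKM in Klebsiella and 611 to 673 FPKM in Lactobacillus libraries. Of the other epithelial markers, Muc2, the goblet cell mucin, was at 2381 to 4305 FPKM in Klebsiella and 1159 to 2858 FPKM in Lactobacillus libraries, with a log2 difference of 0.86 (limma adjusted p 0.774). Car1, a carbonic anhydrase, ran from 195 to 2342 FPKM in Klebsiella and from 414 to 2947 FPKM in Lactobacillus libraries, and Krt20, a keratin of differentiated epithelium, from 66.3 to 243 FPKM in Klebsiella and from 99.1 to 192 FPKM in Lactobacillus libraries. Of the homeobox genes that mark position along the gut, Hoxd13 was at 46.3, 3.25, 2.198 and 8.03 FPKM in Klebsiella mice 1 to 4, against 43.9, 19.1, 27.3 and 39.2 FPKM in Lactobacillus mice 1 to 4 (log2 difference -1.97, limma adjusted p 0.774). The part of these genes in the Ighv results was not tested. Hoxb6 was at 40.2 FPKM in Klebsiella mouse 3 and 45.2 in Lactobacillus mouse 2, and at most 3.87 in the other libraries. Ctrb1, a pancreatic protease gene, was at 418 FPKM in Klebsiella mouse 2 and 112 in Lactobacillus mouse 3, and at most 2.99 in the other libraries.

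The summed Ighv level was 1554, 1424, 1324 and 6526 FPKM in Klebsiella mice 1 to 4, against 2666, 2976, 1208 and 1284 FPKM in Lactobacillus mice 1 to 4. Klebsiella mouse 4 stood far above all others and the other 3 Klebsiella mice lay within the range of the Lactobacillus mice. The log2 sum averaged 11.03 ± 1.099 in Klebsiella mice and 10.87 ± 0.68 in Lactobacillus mice (SD, n = 4 each, two-sided exact permutation p 0.743). The log2 difference of 0.16 became -0.39 without Klebsiella mouse 4, and -0.052 and -0.023 without Lactobacillus mouse 3 or 4. In Klebsiella mouse 4 Ighv6-3 alone reached 2085 FPKM, more than the whole Ighv sum of 5 of the 8 libraries, and the remaining members still summed to 4440 FPKM.

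**Figure D1:**
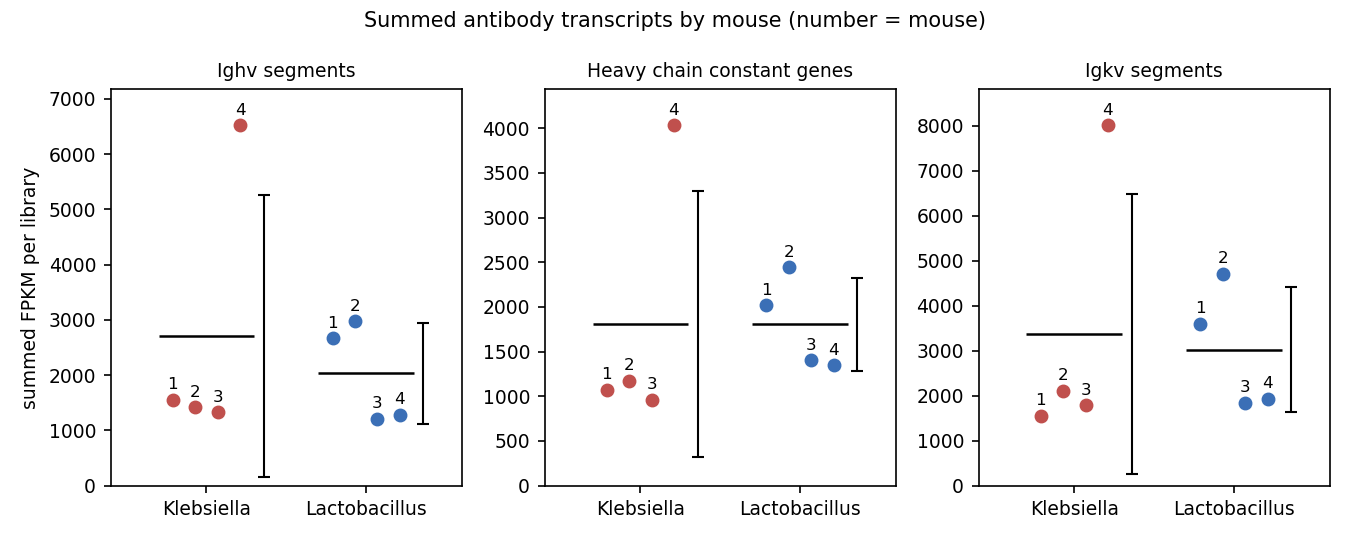
Summed FPKM of the Ighv members, of the 8 heavy chain constant genes and of the Igkv segments (vertical axes, FPKM) for each mouse, numbered within its group, with the group mean as a line and the SD as a bar (n = 4 each). Klebsiella mouse 4 is the highest in all 3 panels, at 6526 FPKM for Ighv.

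Igha, the constant gene of IgA, was at 1013, 1102, 882 and 3932 FPKM in Klebsiella mice 1 to 4, against 1937, 2329, 1343 and 1263 FPKM in Lactobacillus mice 1 to 4, and made up most of the heavy chain constant sum in every library. Jchain, the joining chain of secreted IgA, was at 935 FPKM in Klebsiella mouse 4 and 251 to 287 in the other Klebsiella mice, against 308 to 648 in Lactobacillus mice. Plasma cell markers, Jchain included, summed to 1503 FPKM in Klebsiella mouse 4 and 667 to 787 in the other Klebsiella mice, against 653 to 1078 in Lactobacillus mice. Jchain, Sdc1 and Xbp1 made up most of that sum in every library. Sdc1 was at 151 to 212 FPKM in Klebsiella and 96.1 to 205 FPKM in Lactobacillus mice. Xbp1 was at 218 to 262 FPKM in Klebsiella and 165 to 211 FPKM in Lactobacillus mice. The number of plasma cells was not measured. Not every marker of that list was highest in Klebsiella mouse 4: Mzb1, Tnfrsf17 and Eaf2 were higher in Lactobacillus mouse 2, Tent5c in Lactobacillus mouse 3 and Fkbp11 in Klebsiella mouse 1. The summed level of B cell markers was 73.6 FPKM in Klebsiella mouse 4 and 30.3 to 80.8 in the other Klebsiella mice, against 31.3 to 82.7 in Lactobacillus mice. Ighv per heavy chain constant FPKM was 1.45, 1.21, 1.37 and 1.62 in Klebsiella mice 1 to 4, against 1.32, 1.22, 0.858 and 0.951 in Lactobacillus mice 1 to 4. The groups overlapped, and the log2 difference of 0.39 did not pass (two-sided exact permutation p 0.0857, n = 4 each). Per summed Igkv FPKM the log2 difference was 0.25 (two-sided exact permutation p 0.0571, n = 4 each).

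Of the other antibody genes, 0 of the 7 tested heavy chain constant genes and 0 of the 4 light chain constant genes had a limma adjusted p under 0.05. Of 12 plasma cell markers 4 had log2 differences above 0 and 8 below, around a median of -0.14. Of 12 B cell markers 7 were above 0 and 5 below, around a median of 0.01, and 0 of either list passed (limma). The median over all 16865 tested genes was -0.02. The recombinase genes Rag1 and Rag2, which cut the segments in developing B cells, were scarcely detected, Rag1 at no more than 0.0229 FPKM and Rag2 at 0 in every library. Germinal centre markers summed to 12.5 to 15.6 FPKM in Klebsiella and 12.5 to 13.8 FPKM in Lactobacillus mice, with 0 of 4 tested members past the threshold (limma). T cell markers summed to 9.98 to 12.5 FPKM in Klebsiella and 9.15 to 24.2 FPKM in Lactobacillus mice.

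Most of the members were rare. The number above 0 was 84, 95, 89 and 96 in Klebsiella mice 1 to 4, against 91, 98, 92 and 91 in Lactobacillus mice 1 to 4 (two-sided exact permutation p 0.629, n = 4 each). The difference of -2 became 0.333 without Klebsiella mouse 1. In all 8 libraries 64 members were above 0, and 7 were above 0 in 1 library only, each with 1 read. At the other side of the rule, the 70 Ighv genes left out had 0 reads in every library. They were 57 of the 70 annotated pseudogenes and 13 of the 115 genes not annotated as pseudogenes. Among these 13 were Ighv5-8 and Ighv1-13, annotated as IG_LV_gene rather than IG_V_gene, whose symbols also occur among the pseudogenes. The 13 pseudogenes among the members never passed 0.0736% of the Ighv sum of a library or 6 reads.

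Breadth varied widely between mice of the same group. Segments at 1% or more of the library's Ighv sum numbered 15, 30, 23 and 18 in Klebsiella mice 1 to 4, against 22, 30, 23 and 26 in Lactobacillus mice 1 to 4. The effective number of segments (inverse Simpson index, the number of equally used segments that would give the same concentration) was 7.12, 29.1, 20.02 and 7.25 in Klebsiella mice, against 11.8, 29.4, 26.0 and 16.4 in Lactobacillus mice. It averaged 15.9 ± 10.7 in Klebsiella mice and 20.9 ± 8.18 in Lactobacillus mice (SD, n = 4 each, two-sided exact permutation p 0.429). The difference of -5.03 was -2.11, -2.16 and -2.19 without Klebsiella mouse 1, Klebsiella mouse 4 or Lactobacillus mouse 2, and -9.44 without Klebsiella mouse 2. By the effective number, the 4 broadest repertoires were those of Klebsiella mice 2 and 3 and Lactobacillus mice 2 and 3. These are the libraries with high Ctrb1 or high Hoxb6, and the part of these in the breadth was not tested. By segments at 1% or more the order was another, with Lactobacillus mouse 4 above Klebsiella mouse 3 and Lactobacillus mouse 3. Leaving out both Hoxb6-high libraries gave a difference in effective number between groups of -3.57, and leaving out both Ctrb1-high libraries gave -7.74. Klebsiella mouse 4 had the most Ighv reads and the second lowest effective number. At an equal 7579 reads the expected number of segments above 0 was 82.2, 93.2, 89 and 82.0 in Klebsiella mice 1 to 4, against 87.2, 90.3, 90.7 and 90.2 in Lactobacillus mice 1 to 4.

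**Figure D2:**
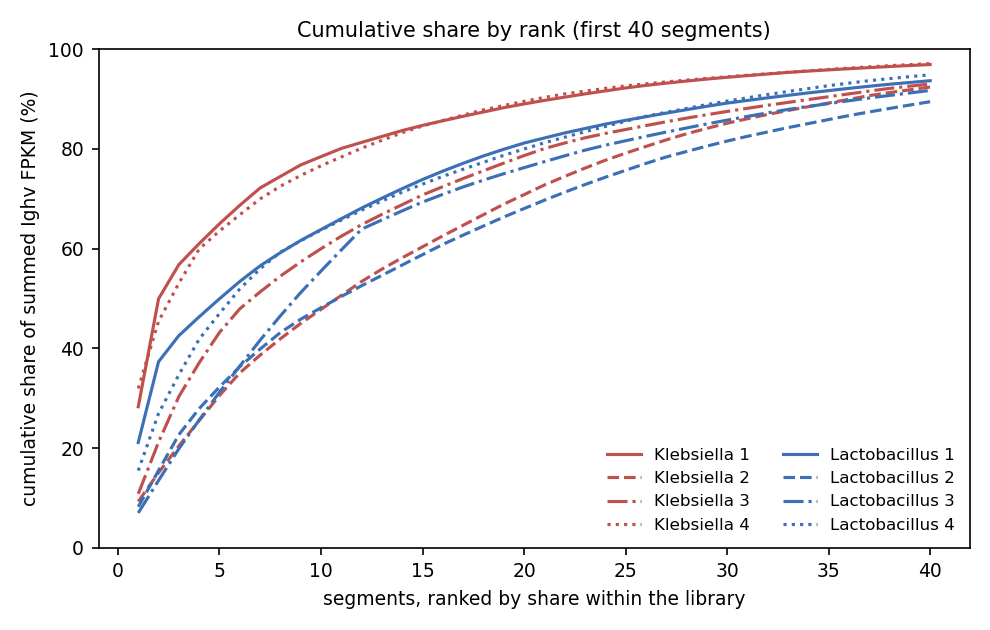
Cumulative share of the summed Ighv FPKM (vertical axis, percent) over segments ranked within each library (horizontal axis, first 40 ranks), 1 line per mouse. The lines of Klebsiella mice 1 and 4 rise fastest, with 78.5% and 76.6% in the 10 leading segments, and those of Klebsiella mouse 2 and Lactobacillus mouse 2 rise slowest, with 47.8% and 48.2%.

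The 10 leading segments held 78.5%, 47.8%, 59.99% and 76.6% of the sum in Klebsiella mice 1 to 4, against 63.8%, 48.2%, 55.5% and 63.7% in Lactobacillus mice 1 to 4 (two-sided exact permutation p 0.400, n = 4 each). The difference of 7.92 percentage points was 3.67, 4.28 and 4.699 without Klebsiella mouse 1, Klebsiella mouse 4 or Lactobacillus mouse 2, and 13.9 without Klebsiella mouse 2. In Klebsiella mice 1 and 4, 3 segments were enough to pass 50% of the sum, where Klebsiella mouse 2 and Lactobacillus mouse 2 needed 11. The share of the leading segment averaged 20.1% ± 11.7 in Klebsiella mice and 12.96% ± 6.61 in Lactobacillus mice (SD, n = 4 each, two-sided exact permutation p 0.286). The difference of 7.13 percentage points was 3.18 and 4.40 without Klebsiella mouse 4 or 1, and 10.7 without Klebsiella mouse 2. With 4 mice a group the smallest p this test can give is 0.0286. All 9 repertoire summaries had adjusted p-values of 0.588 or more.

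Across the 8 mice 6 different segments led. In Klebsiella mouse 1 the leader was Ighv3-8 at 28.3% of the sum, with 30.2% of the Ighv reads (Wilson 95% interval 29.2% to 31.1%, counting error only). In Klebsiella mouse 2 it was Ighv1-26 at 9.30% and in Klebsiella mouse 3 Ighv3-6 at 10.8%. Ighv6-3 led in Klebsiella mouse 4 at 31.96%, with 12884 of 40990 reads (31.4%, Wilson 95% interval 31.0% to 31.9%). It also led in Lactobacillus mice 1 and 4, at 21.1% and 15.5%. Ighv1-53 led in Lactobacillus mouse 2 at 8.23% and Ighv1-22 in Lactobacillus mouse 3 at 6.997%.

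Ighv6-3 was the segment that mice of both groups shared at high level. Its share was 21.7%, 3.07%, 3.38% and 31.96% in Klebsiella mice 1 to 4, against 21.1%, 1.80%, 5.22% and 15.5% in Lactobacillus mice 1 to 4. It was above 15% in Klebsiella mice 1 and 4 and in Lactobacillus mice 1 and 4, and at most 5.22% in the other mice, so that the groups overlapped widely. The low libraries are again those with high Ctrb1 or high Hoxb6, whose part was not tested. With only Ighv1-26 and Ighv1-64 it made up the 3 segments at 1% or more in all 8 mice. Ighv1-26 ranged from 1.11% to 9.30% in Klebsiella and from 1.05% to 4.22% in Lactobacillus mice. Ighv1-64 ranged from 1.66% to 5.38% in Klebsiella and from 1.201% to 5.14% in Lactobacillus mice.

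Ighv1-80, next in mean share, was at 2.30%, 0.739%, 9.14% and 3.17% in Klebsiella mice 1 to 4, against 16.2%, 1.53%, 4.67% and 4.93% in Lactobacillus mice 1 to 4. Like Ighv6-3 it was spread over both groups, and it was at 1% or more in all mice but Klebsiella mouse 2. Ighv1-53 was at 1.65% to 2.28% in Klebsiella mice, against 2.17%, 8.23%, 0.720% and 7.77% in Lactobacillus mice 1 to 4, so that the groups overlapped here too.

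Other leaders belonged to a single mouse or a few. Ighv3-8 was at 28.3% in Klebsiella mouse 1, at 1.57%, 0.153% and 0.0471% in Klebsiella mice 2 to 4, and at 0.0713% to 1.104% in Lactobacillus mice. Ighv1-50 was at 13.5% in Klebsiella mouse 4 and at 0.0732% to 1.04% in the other Klebsiella mice, against 0.501% to 1.68% in Lactobacillus mice. Its close relative Ighv1-69 was at 0.313% to 3.55% in Klebsiella mice, against 11.5% in Lactobacillus mouse 4 and 0.315% to 1.49% in the other Lactobacillus mice. So these near-identical genes were high in different mice. Ighv14-1 was at 7.66% in Klebsiella mouse 4 and 1.03% to 4.54% in the other Klebsiella mice, against 0.502% to 3.13% in Lactobacillus mice. Ighv14-2 was at 6.86% in Klebsiella mouse 4 and at most 0.25% in the other Klebsiella mice, against 7.29% in Lactobacillus mouse 2 and at most 1.14% in the other Lactobacillus mice. Ighv3-3 was at 10.4% in Klebsiella mouse 3 but had 1 of 40990 Ighv reads in Klebsiella mouse 4.

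The counts over all members show the same spread. Of the 115 members 57 reached 1% of the sum in some mouse, 13 of them in 1 mouse only, 14 in 2 mice and 3 in all 8. At 5% or more there were 24 members, 15 of them in 1 mouse only. The 3 leading places of the 8 mice were filled by 19 different segments, and no segment was among the 10 leading in all 8 mice.

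**Figure D3:**
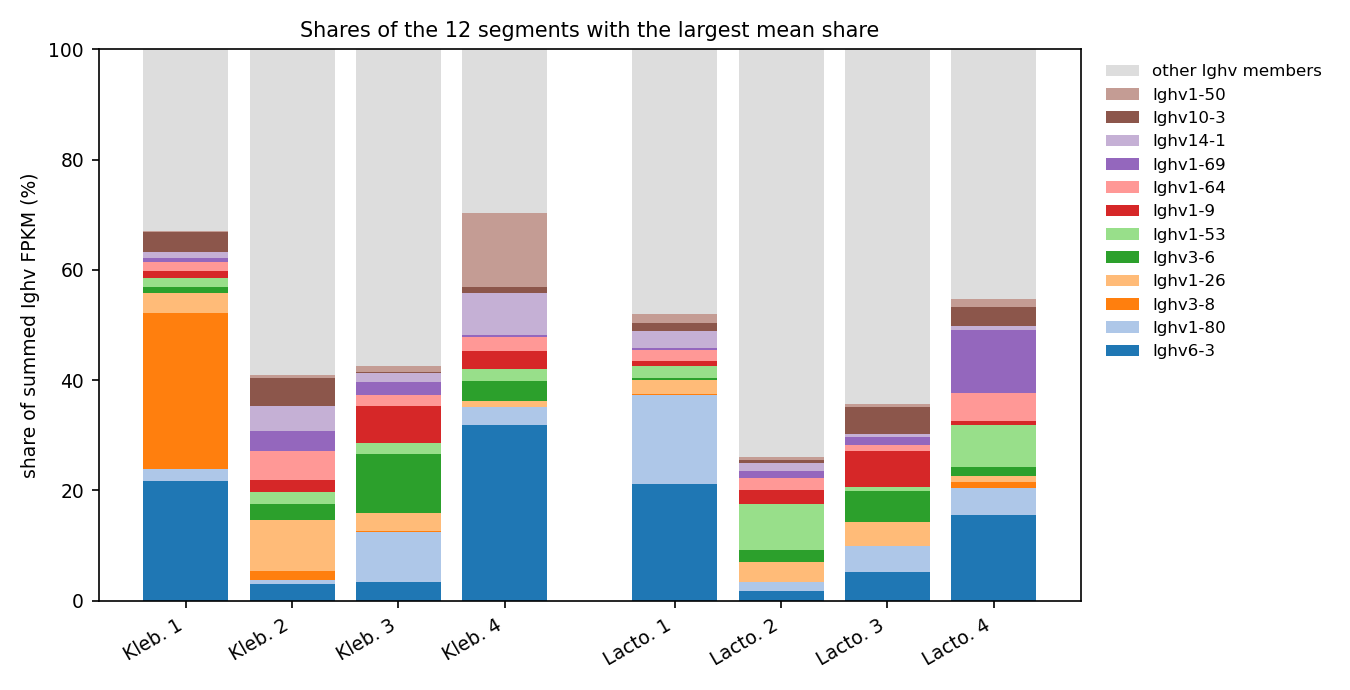
Shares of the summed Ighv FPKM (vertical axis, percent) of the 12 segments with the largest mean share over the 8 libraries, stacked for each mouse, with all other Ighv members in grey. The same 12 segments take up most of the bar in mice 1 and 4 of both groups and the smallest part in Lactobacillus mouse 2. The large blocks differ from mouse to mouse except for Ighv6-3.

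Variable segments are grouped in families by sequence likeness. The Ighv1 family, the largest of the mouse locus with 59 of the members, held 25.3%, 53.6%, 56.2% and 37.2% of the sum in Klebsiella mice 1 to 4, against 49.6%, 53.3%, 53.4% and 59.6% in Lactobacillus mice 1 to 4. It averaged 43.1% ± 14.5 in Klebsiella mice and 54.0% ± 4.18 in Lactobacillus mice (SD, n = 4 each, two-sided exact permutation p 0.314). The low values belonged to Klebsiella mice 1 and 4, and the difference of -10.9 percentage points was -4.97 without Klebsiella mouse 1. The Ighv3 family was at 33.6%, 8.20%, 23.5% and 5.68% in Klebsiella mice, against 1.39%, 5.08%, 7.84% and 7.05% in Lactobacillus mice. Different members carried it, Ighv3-8 in Klebsiella mouse 1 and Ighv3-6 with Ighv3-3 in Klebsiella mouse 3. Its difference was the largest of the family shares, 12.4 percentage points, and did not pass (two-sided exact permutation p 0.114, adjusted p 0.743 over 11 families). It was 7.12 points without Klebsiella mouse 1. Without Klebsiella mouse 4 it was 16.4 points, with an unadjusted exact permutation p of 0.0286, the smallest possible. For the Ighv2 family, with 1.24% to 7.01% in Klebsiella and 3.87% to 7.01% in Lactobacillus mice, the exact permutation p was 0.200, and without Klebsiella mouse 2 the difference was -4.02 points with p 0.0286. The Ighv14 family was at 1.37% to 15.1% in Klebsiella and 2.16% to 9.51% in Lactobacillus mice.

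The segments lie in tandem on chromosome 12, and segments near and far from the diversity (D) segments are known to be used at different rates in B cell development. The 93 annotated Ighv genes farthest from the D segments held 23.4%, 52.8%, 47.8% and 32.7% of the sum in Klebsiella mice 1 to 4, against 48.2%, 51.8%, 46.6% and 58.4% in Lactobacillus mice 1 to 4. They averaged 39.2% ± 13.6 in Klebsiella mice and 51.2% ± 5.26 in Lactobacillus mice (SD, n = 4 each, two-sided exact permutation p 0.229). Klebsiella mice 1 and 4 were lowest, and Ighv3-8 and Ighv6-3, which led there, are numbers 64 and 69 of 185 from the D side. Lactobacillus mice 1 and 4, which Ighv6-3 also led, were not low. The difference of -12.1 percentage points was -6.78 without Klebsiella mouse 1 and -9.90 without Klebsiella mouse 4, and over the mice left out in turn it ran from -16.6 to -6.78.

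**Figure D4:**
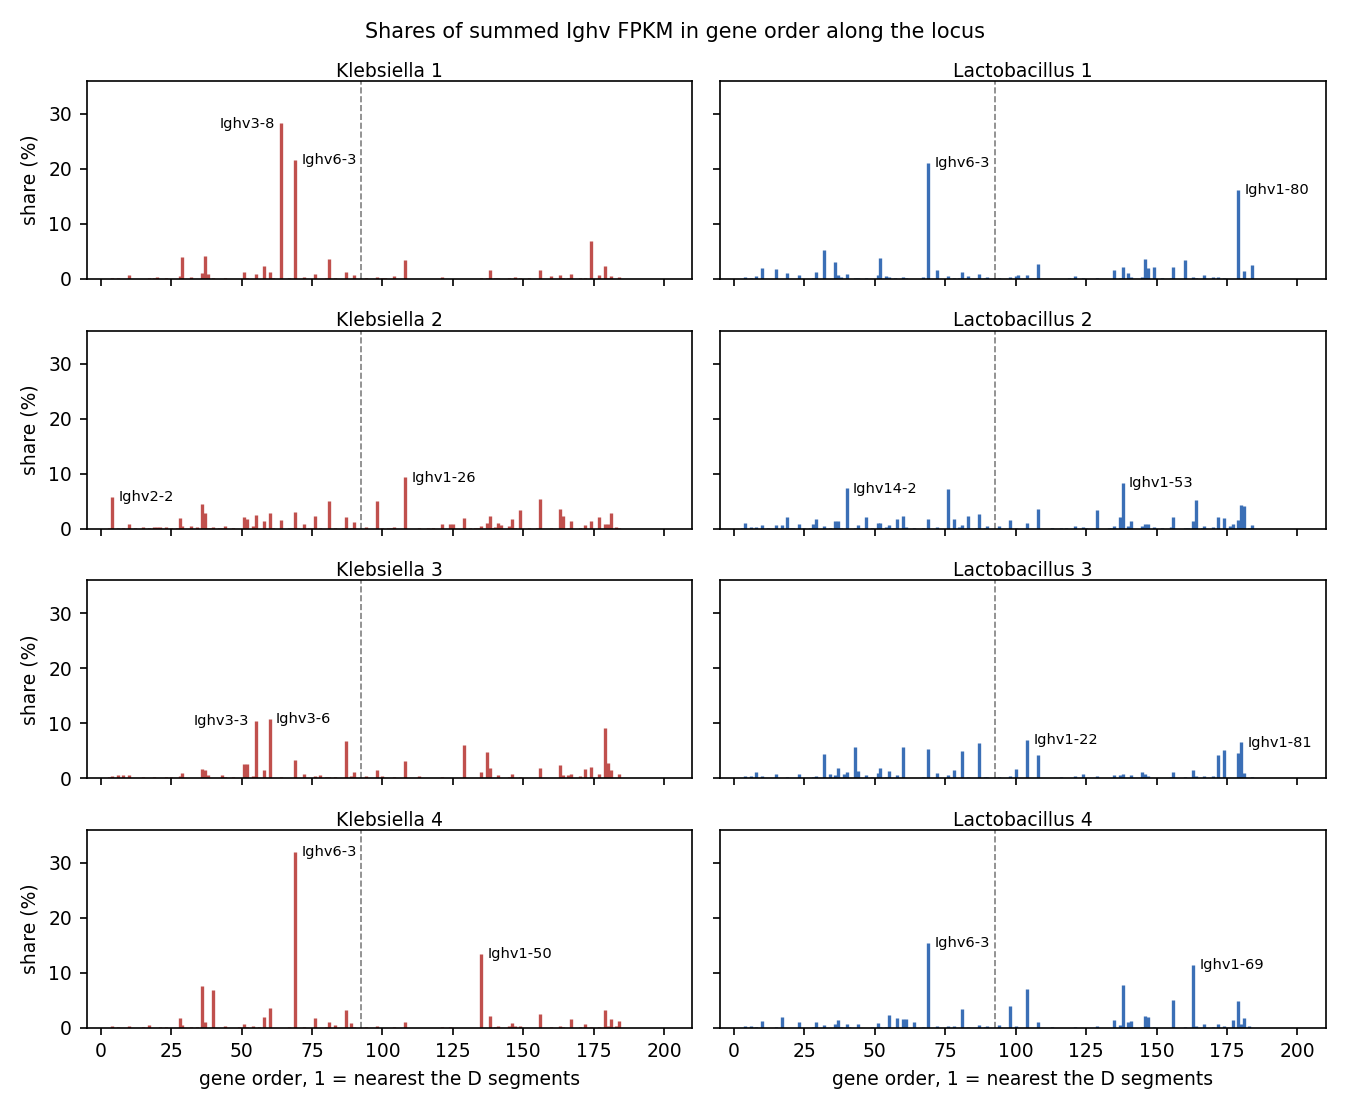
Share of each Ighv member in the library's Ighv sum (vertical axes, percent) against its place in gene order along the locus (horizontal axis, 1 nearest the D segments, 185 farthest), 1 panel per mouse, with the 2 leading segments named. The dashed line separates the 92 nearer from the 93 farther genes. The tall lines differ between mice, and only that of Ighv6-3 recurs above 15% in 4 of them.

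To ask whether mice of 1 group shared their segments more than mice of different groups, the overlap of each pair of mice was computed as the sum over segments of the smaller of the 2 shares. It averaged 40.9% over the 6 pairs of Klebsiella mice, 45.0% over the 6 pairs of Lactobacillus mice and 44.7% over the 16 pairs across groups. The closest pair was across groups, Klebsiella mouse 3 with Lactobacillus mouse 3 at 54.7%. The most distant pair was also across groups, Klebsiella mouse 1 with Lactobacillus mouse 2 at 34.0%. The mean within groups minus that across groups was -1.76 percentage points, which did not pass the exact permutation test over the 35 splits of 8 mice (two-sided p 0.457). Without Klebsiella mouse 3 it was 0.0217 percentage points. Any pair of mice had 1 to 5 of the 10 leading segments in common.

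**Figure D5:**
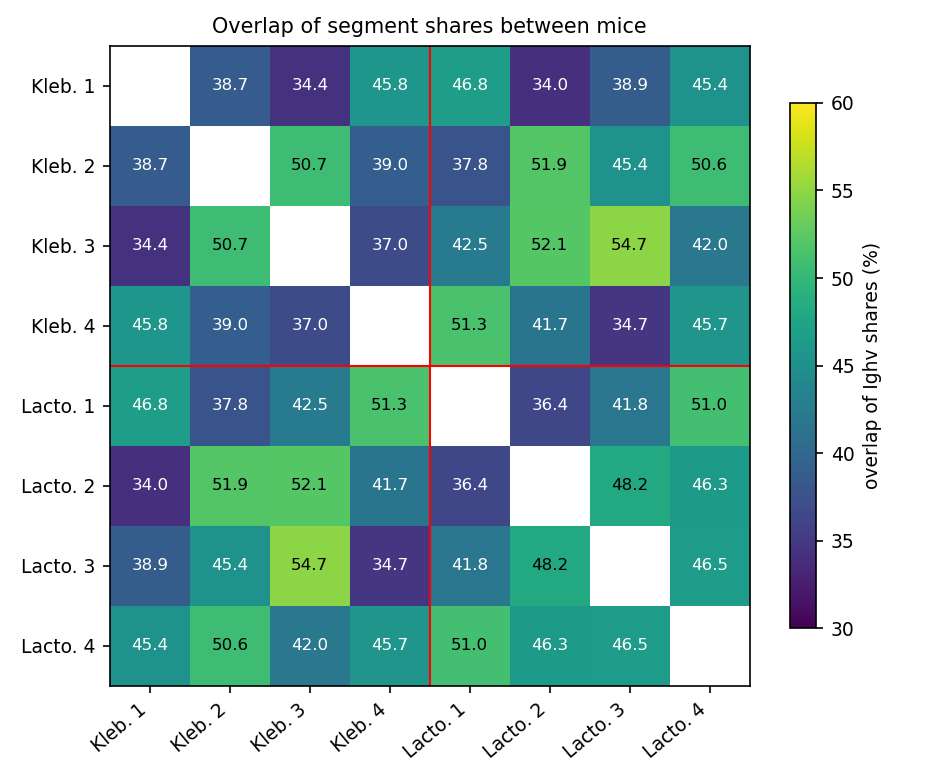
Overlap of Ighv shares (colour and printed value, percent) for each pair of mice, with red lines between the groups. Values run from 34.0% to 54.7%, and the blocks within groups are not brighter than the blocks across groups.

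Single segments were compared with limma on log2(FPKM + 0.5) over all 16865 genes with a mean of at least 0.5 FPKM. Of the 115 members 88 passed that filter, and the 27 others never passed 0.124% of a library's Ighv sum. Of the 88, 0 passed at an adjusted p under 0.05, where 0% of all tested genes did. At an unadjusted p under 0.05 there were 7, against 6.07% of all tested genes. Of these 1 was higher and 6 were lower in Klebsiella recipients, against 2.55% and 3.52% of all tested genes in those directions. Voom on the recovered reads called 0 members, with 6 of 88 at an unadjusted p under 0.05, against 1046 of 16864 genes. The log2 difference was above 0 for 36 of the 88 and below 0 for 52, where it was above 0 for 46.4% of all tested genes. The median was -0.29 for the 88 and -0.02 for all tested genes. That median was 0.02 without Klebsiella mouse 1, 0.16 without Lactobacillus mouse 2 and -0.61 without Klebsiella mouse 4.

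The authors' deposited table of differing genes holds 3 of the members. The share of all genes in that table is not given here, so this count is not read as many or few. These 3 were the only ones of the 88 whose groups did not overlap in FPKM, against 2.99% of all tested genes. All 3 were lower in Klebsiella mice, where 1.80% of all tested genes were without overlap in that direction. In FPKM there was no tested member without overlap in the higher direction, against 1.19% of all tested genes. If the table was chosen on these mice, as its name implies, their direction is not independent evidence. Ighv1-22 was at 9.21, 4.15, 3.32 and 4.597 FPKM in Klebsiella mice 1 to 4, against 19.2, 32.3, 84.5 and 91.6 FPKM in Lactobacillus mice 1 to 4. Its log2 difference was -3.12 (SE 0.51, limma adjusted p 0.618). As a share of the Ighv sum it was at 0.0704% to 0.592% in Klebsiella mice, against 0.721%, 1.08%, 6.997% and 7.13% in Lactobacillus mice. Its closest relative Ighv1-26, with the sequence printed above, was at 53.97, 132, 42.1 and 72.4 FPKM in Klebsiella mice, against 70.6, 105, 51.0 and 13.5 FPKM in Lactobacillus mice, and did not split by group.

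Ighv2-9 was at 6.13, 5.46, 0.508 and 6.37 FPKM in Klebsiella mice 1 to 4, against 139, 14.9, 52.2 and 7.56 FPKM in Lactobacillus mice 1 to 4. Its log2 difference was -2.93 (SE 0.94, limma adjusted p 0.774), and the gap between the groups was narrow. Ighv2-9-1 was at 2.99 to 7.18 FPKM in Klebsiella mice, against 9.91 to 26.2 FPKM in Lactobacillus mice. The difference on the log2 scale was -1.70 (SE 0.33, limma adjusted p 0.774). The other 3 of the 6 segments with the smallest unadjusted p on the lower side were Ighv1-59, Ighv9-4 and Ighv1-4. Their log2 differences were -2.59, -1.98 and -2.13, and in FPKM the groups overlapped for all of them. As a share, Ighv1-59 was at most 0.326% in Klebsiella mice and at least 0.350% in Lactobacillus mice. Without Lactobacillus mouse 2 the log2 difference of Ighv1-4 was -1.40.

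On the higher side the smallest unadjusted p belonged to Ighv9-3. It was at 18.8, 30.3, 33.2 and 46.5 FPKM in Klebsiella mice 1 to 4, against 17.1, 28.2, 10.8 and 10.2 FPKM in Lactobacillus mice 1 to 4. The log2 difference of 0.98 did not pass (SE 0.35, limma adjusted p 0.774). The groups overlapped for it. The next were Ighv5-2, Ighv2-6, Ighv4-1, Ighv1-12 and Ighv5-16, with log2 differences of 1.15, 1.33, 0.84, 1.02 and 1.79, and 0 of them passed (limma). For Ighv5-16 it was 0.94 without Klebsiella mouse 4, and for Ighv1-12 it was 0.56 without Lactobacillus mouse 3. For Ighv5-2, with at most 3.48 FPKM in any mouse, it was 2.09 with a pseudocount of 0.1 and 2.36 with voom on the recovered reads.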

How the data were processed

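RNA of the intestine of 8 mice was sequenced. Per the labels' protocols, total RNA was taken with Trizol from frozen tissue and libraries were made with an Illumina TruSeq kit. The submitters' processing notes name DESeq2 1.10.1, HTSeq 0.6.0, STAR 2.5.1b and CASAVA but give neither their roles nor their order. No source used here gives the genome build. Deposited by the authors were FPKM values of 49585 gene identifiers and, per the file headers, read counts after filtering per library.

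Symbols, biotypes, gene order, transcripts and coordinates came from GENCODE M21 (GRCm38); 49326 identifiers matched. In 2 or more libraries 26963 genes had FPKM above 0, and for all 26963 the values were whole multiples of 1 read within a relative tolerance of 1e-10. Library scale came from 6772 genes whose length matched the annotation, and gave the reads of genes above 0 in 1 library. Printed sequences are GENCODE M21 transcript sequence. Identity was computed by global alignment with free end gaps in biopython 1.88, over at least 200 aligned columns.

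Shares are percentages of the summed FPKM of the members. Groups were compared as Klebsiella minus Lactobacillus by exact permutation over 70 assignments, adjusted (Benjamini-Hochberg) over 9 summaries or 11 families with a mean share of at least 1%. Single genes were tested by limma (version 3.58.1, R version 4.3.3, mean-variance trend, two-sided, Benjamini-Hochberg over 16865 genes). Log2 differences on a scale with a pseudocount understate the change of low genes. The fit and the read recovery were tested on simulated data. The remaining steps used scipy 1.17.1, numpy 2.4.6, matplotlib 3.10.9 and pandas 2.3.3 in Python 3.11.15.

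The members and lists were chosen with earlier results of these data known. Named segments are the 12 with the largest mean share, the 3 leading in each mouse, those in the authors' table, and the 6 with the smallest unadjusted p in each direction. Alternatives were pseudocounts, filters, rescaling, other indices, read-based shares, removal of pseudogenes, a block for mouse number and each mouse left out; 4 were added after the data were seen. Counting intervals cover counting error only.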

Additional observations from a re-analysis of the deposited data

Results flagged for a closer look

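Single mice stood apart from the other 3 of their group in 13 of 96 sets of 4 values, by a gap to the nearest mouse that exceeded Dixon's 95% critical share of the group's range. For normally distributed values chance gives such a gap in about 1 in 20 groups. Many of the segments were named because they led in some mouse, which favours such a gap, and shares within a mouse are not independent. The 13 of 96 can therefore not be set against that rate. The summed Ighv level was 6526 FPKM in Klebsiella mouse 4, against 1324 to 1554 in the other Klebsiella mice. The number of segments above 0 was 98 in Lactobacillus mouse 2, against 91 to 92 in the other Lactobacillus mice. That mouse had the most Ighv reads of its group, 20942. At an equal 7579 reads its expected number was 90.3, against 87.2 to 90.7 in the other Lactobacillus mice, so it did not stand apart.

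Klebsiella mouse 2 stood apart in 3 shares. Its Ighv2 family was at 7.01% against 1.24% to 1.53% in the other Klebsiella mice, its Ighv8 family at 2.93% against 0.387% to 0.769%, and Ighv2-2 at 5.76% against 0.0926% to 0.368%. In Klebsiella mouse 1 Ighv3-8 was at 28.3% against 0.0471% to 1.57%. In Klebsiella mouse 4 Ighv1-50 was at 13.5% against 0.0732% to 1.04% and Ighv14-2 at 6.86% against 0.106% to 0.25%.

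In Lactobacillus mouse 2, Ighv14-2 was at 7.29% against 0.658% to 1.14% in the other Lactobacillus mice, Ighv10-1 at 7.18% against 0.408% to 0.528%, and Ighv5-16 at 0.810% against 0.128% to 0.231%. In Lactobacillus mouse 4, Ighv1-69 was at 11.5% against 0.315% to 1.49%, and Ighv3-8 at 1.104% against 0.0713% to 0.107%.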

How the results depend on the processing

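No repertoire summary or segment had an adjusted p under 0.05 as reported or under any alternative run, single mice left out included. For the summaries this says little. The smallest possible exact permutation p of 0.0286 passes adjustment only if most summaries reach it together. With both Hoxb6-high or both Ctrb1-high libraries left out, or with sign flips by mouse number, no p under 0.05 was possible. Of the 11 families, Ighv3 without Klebsiella mouse 4 and Ighv2 without Klebsiella mouse 2 reached the smallest possible exact permutation p, 0.0286 before adjustment, which was not adjusted over families. With each mouse left out in turn, the log2 difference of the summed level ran from -0.39 to 0.38. The difference in the number of segments above 0 ran from -3.67 to 0.333. Sharing within minus across groups ran from -3.03 to 0.0217 percentage points. Family share differences ran from -1.30 to 0.0918 for Ighv5, -1.67 to 7.74 for Ighv6, -1.58 to 0.23 for Ighv8, -0.716 to 0.0576 for Ighv9, -2.08 to 0.148 for Ighv10 and -1.73 to 2.86 for Ighv14. Sharing within minus across groups was 0.137 with family shares and 2.75 with the Jaccard index of segments at 1% or more. Leaving out both Hoxb6-high libraries, an alternative chosen after seeing the data, made the difference in segments above 0 equal to 0.333. The cause of these changes was not tested. The labels number the mice without saying whether equal numbers pair them. Deviations of same-numbered mice correlated at 0.19, -0.10, -0.06 and -0.16 across genes, which cannot settle it. With mouse number as a replicate block limma called 0 segments. At an unadjusted p under 0.05 that fit had 10 of 88 segments, against 1027 of 16865 genes. Exact sign flips over the repertoire summaries gave p from 0.125, the smallest that 4 pairs allow, to 0.875. Sharing between mice has no such fit. Without 1 mouse the members at an unadjusted p under 0.05 (limma) ranged from 4 to 12. The 4 of 86 came without Klebsiella mouse 2, against 725 of 16850 genes. The 12 of 87 came without Lactobacillus mouse 2, against 781 of 16823 genes. Over all genes the count ran from 572 of 16888 without Lactobacillus mouse 3 to 2009 of 16921 without Lactobacillus mouse 1. Groups of 4 mice limit what could be called. Most members had few reads, and the part of read number in the lack of calls was not tested.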

Other observations

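Ighv11-2 and Ighv12-3 are known from mouse B-1 cells that bind phosphatidylcholine. They were singled out after their values were seen. Ighv11-2 was at 0.633% or less in the 4 Klebsiella mice, against 5.58% in Lactobacillus mouse 3 and at most 0.0965% in the other Lactobacillus mice. Ighv11-1, which is 98.9% identical to Ighv11-2, had 78 reads in Lactobacillus mouse 3, where Ighv11-2 had 672, and at most 2 reads in any other mouse. Reads of these close relatives cannot be told apart with certainty, and the values are not separate observations. Ighv12-3 had 1 to 3 reads in the Klebsiella mice and 0 to 3 reads in the Lactobacillus mice.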
